A study of Mus musculus with 4 samples.

Results

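The miR-181 family was measured in the brain cortex of 4 mice by small RNA sequencing. Its members were taken as every row of the deposited miRNA table whose name places it in the miR-181 family, for letters a to d and either arm of the hairpin, and this gave 10 of the 942 mature miRNAs. They are 4 5p arms (miR-181a-5p, miR-181b-5p, miR-181c-5p and miR-181d-5p) and 6 3p arms (miR-181a-1-3p, miR-181a-2-3p, miR-181b-1-3p, miR-181b-2-3p, miR-181c-3p and miR-181d-3p). The mice were of the B6C3 strain and 9 months old, with 2 libraries of wild-type (WT) mice, WT-1 and WT-2, and 2 libraries of AD mice, APP-3 and APP-4. The AD mice carried the APPswe/PS1deltaE9 transgenes, an APP with the Swedish mutation and a presenilin 1 without exon 9. Both transgenes are active in neurons, and the WT mice carried neither. Per the study's methods the mice were 2 sibling pairs, WT-1 with APP-4 (group 1) and WT-2 with APP-3 (group 2), so each library is 1 mouse and each group holds 1 mouse of either genotype. The study asked which cortical miRNAs differ between AD mice and their WT siblings.

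A miRNA is cut from a hairpin RNA by Drosha and Dicer, and the 5p and 3p strands of the hairpin are its arms. One arm is usually kept in an Argonaute protein and guides it to messenger RNAs that pair with the seed, the bases from position 2 to position 8, and the other arm is mostly degraded. The miR-181 family is abundant in brain and in developing T cells, where miR-181a sets the sensitivity of the T cell receptor, and in neurons miR-181a is known to lower the glutamate receptor subunit GluA2 at synapses.

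The mature sequences are shown because the seed groups the arms and because near-identical members could share reads. All 10 members matched the RefSeq miRNAs of GRCm38.p6, and the seed is in capitals. The 4 5p arms have 1 seed in common.

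miR-181a-5p: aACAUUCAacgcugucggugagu
miR-181c-5p: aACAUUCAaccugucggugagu
miR-181b-5p: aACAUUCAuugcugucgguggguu
miR-181d-5p: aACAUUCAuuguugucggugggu

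No other mature miRNA of the RefSeq table has this seed. Among the 754 of 942 counted miRNAs that matched RefSeq, the 4 5p arms thus hold all the reads of their seed. The seeds of the other counted miRNAs were not examined. The 6 3p arms fall into 4 seeds.

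miR-181c-3p: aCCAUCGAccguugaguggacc
miR-181a-1-3p: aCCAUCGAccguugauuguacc
miR-181a-2-3p: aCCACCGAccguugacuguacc
miR-181b-1-3p: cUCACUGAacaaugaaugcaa
miR-181b-2-3p: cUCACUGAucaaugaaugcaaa
miR-181d-3p: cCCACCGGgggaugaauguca

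Positions are counted from 1 at the 5′ end. miR-181a-5p and miR-181c-5p differ by a single base that miR-181c-5p lacks, an edit distance of 1. From miR-181a-5p to miR-181b-5p the substitutions are A9U, C10U and A21G, and miR-181b-5p is longer by 1 base. From miR-181b-5p to miR-181d-5p the only substitution over the shared length is C12U. Both 3p arms of miR-181a differ by U5C and U16C (miR-181a-1-3p to miR-181a-2-3p), and the first of these lies in the seed. From miR-181c-3p to miR-181a-1-3p the substitutions are G16U and G19U, and from miR-181b-1-3p to miR-181b-2-3p there is A9U. The study's methods state both a counting with at most 2 mismatches and a matching to miRBase with no mismatch, so reads of members this close could have been counted on either of them, which the table cannot tell apart.

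The family comes from 6 hairpins in 3 clusters, placed on GRCm38 with the GENCODE vM21 annotation. Mir181a-1 (chr1:137966455-137966541) and Mir181b-1 (chr1:137966639-137966718) lie on the plus strand with 97 bases between them, in introns of the noncoding gene Gm4258 and opposite to an intron of the lincRNA Gm26936. All 80 bases of Mir181b-1 and 11 of the 87 bases of Mir181a-1 also fall in an exon of the lincRNA A430106G13Rik. Mir181a-2 (chr2:38852735-38852810) and Mir181b-2 (chr2:38853830-38853918) lie on the plus strand 1019 bases apart, opposite to an intron of Nr6a1, which encodes an orphan nuclear receptor. Mir181b-2 is also opposite to an exon of Gm44144. Mir181c (chr8:84178873-84178961) and Mir181d (chr8:84178716-84178787) lie on the minus strand with 85 bases between them, in an intron of Nanos3, which encodes an RNA-binding protein of germ cells. The hairpins of miR-181a are shown with both mature arms in capitals, since their 5p arms are identical and only the 3p arms tell the loci on chromosomes 1 and 2 apart.

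Mir181a-1: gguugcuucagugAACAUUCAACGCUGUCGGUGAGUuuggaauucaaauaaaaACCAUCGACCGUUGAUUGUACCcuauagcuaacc
Mir181a-2: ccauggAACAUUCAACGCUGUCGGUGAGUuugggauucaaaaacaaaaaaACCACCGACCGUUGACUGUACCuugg

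The same holds for miR-181b-5p, which both Mir181b-1 and Mir181b-2 can give.

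Counts were scaled to reads per 1000000 miRNA reads (RPM) of the library, from 19048747 miRNA reads in APP-4 to 26085776 in WT-1, and 3 reads were worth between 0.115 and 0.157 RPM. Scaling by TMM, which estimates library sizes from the bulk of the miRNAs, gave factors from 0.920 in WT-1 to 1.10 in APP-4, and it moved every log2 fold change by -0.25 in group 1, -0.02 in group 2, -0.11 for WT-2 against WT-1 and -0.13 for APP-4 against APP-3. All 7 neuronal marker miRNAs of a fixed list were present, with a summed level of 79726 to 87239 RPM over the 4 libraries, and of the markers of other cell types with a row in the table, 0 were at 0. The summed level of 9 epithelial marker miRNAs was 8762 RPM in APP-4 against 4275 to 4947 RPM in the other libraries, with 8 of the 9 highest in APP-4 and miR-204-5p lowest there, at 2900 RPM against 3472 to 4370. Whether this plays a part in the values of APP-4 was not tested. In tissue libraries such as these, fewer cells of a type and less RNA per cell cannot be told apart.

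The miR-181 family took from 12.9% to 16.9% of the miRNA reads. The 10 members summed to 168716 RPM in WT-1, 128718 in WT-2, 133202 in APP-3 and 155323 in APP-4. WT-1 was highest and WT-2 lowest, so both AD mice lay between the WT mice. The sum was 148717 ± 28283 RPM in WT mice and 144263 ± 15642 RPM in AD mice (SD, n = 2), a difference smaller than the spread within either genotype, and its sign turned without WT-1 or without APP-3. As a share of all clean reads the family took 14.1% in WT-1, 11.4% in WT-2, 11.7% in APP-3 and 12.9% in APP-4, in the same order. With 2 mice a genotype, an exact permutation test of a single value such as this sum cannot give a two-sided p below 0.333.

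miR-181a-5p, the guide arm of both Mir181a hairpins, carried nearly all of these reads and was the miRNA with the second highest count in each of the 4 libraries. Its level was 149939 RPM in WT-1, 112357 in WT-2, 117510 in APP-3 and 136472 in APP-4, which is 15.0%, 11.2%, 11.8% and 13.6% of the miRNA reads. Siblings lay next to each other in this order, with WT-1 and APP-4 high and WT-2 and APP-3 low, and the genotypes overlapped. With TMM library sizes the level was 162994 in WT-1, 113546 in WT-2, 117309 in APP-3 and 124440 in APP-4, and WT-1 then stood above the other libraries.

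miR-181b-5p and miR-181c-5p followed at a level more than 10 times lower, and their order changed between mice. miR-181c-5p was at 7817 RPM in WT-1, 7283 in WT-2, 6540 in APP-3 and 8209 in APP-4. miR-181b-5p was at 8002 RPM in WT-1, 6574 in WT-2, 6697 in APP-3 and 8045 in APP-4. The means of these neighbours, 7550 ± 378 and 7288 ± 1009 RPM in WT mice and 7375 ± 1181 and 7371 ± 953 RPM in AD mice (SD, n = 2), did not differ beyond their spread. miR-181d-5p, the arm encoded next to miR-181c, was at 1850 RPM in WT-1, 1643 in WT-2, 1613 in APP-3 and 1598 in APP-4. Both AD mice lay below both WT mice, and WT-2 was closer to the AD mice than to WT-1.

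Of the 3p arms, miR-181c-3p and miR-181a-1-3p were abundant. miR-181c-3p was at 528 RPM in WT-1, 453 in WT-2, 439 in APP-3 and 524 in APP-4. miR-181a-1-3p was at 571 RPM in WT-1, 398 in WT-2, 395 in APP-3 and 465 in APP-4. These neighbours overlapped in level as well, and in both the genotypes overlapped. The 4 other 3p arms were rare. miR-181b-1-3p had 187 reads in WT-1, 155 in WT-2, 172 in APP-3 and 174 in APP-4, or 7.17, 7.02, 8.09 and 9.13 RPM. miR-181d-3p had 17, 42, 8 and 7 reads in the same order, or 0.652, 1.90, 0.376 and 0.367 RPM. miR-181b-2-3p had 6, 9, 7 and 12 reads. miR-181a-2-3p had 1 read, in APP-4, and its 0 reads in each of the other libraries allow up to 0.115, 0.136 and 0.141 RPM in WT-1, WT-2 and APP-3. Intervals, limits from a count of 0 and standard errors of reads here cover counting error only, not the spread between mice. Since PCR copies of a molecule are not independent, they may be too narrow even for counting error.

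**Figure D1:**
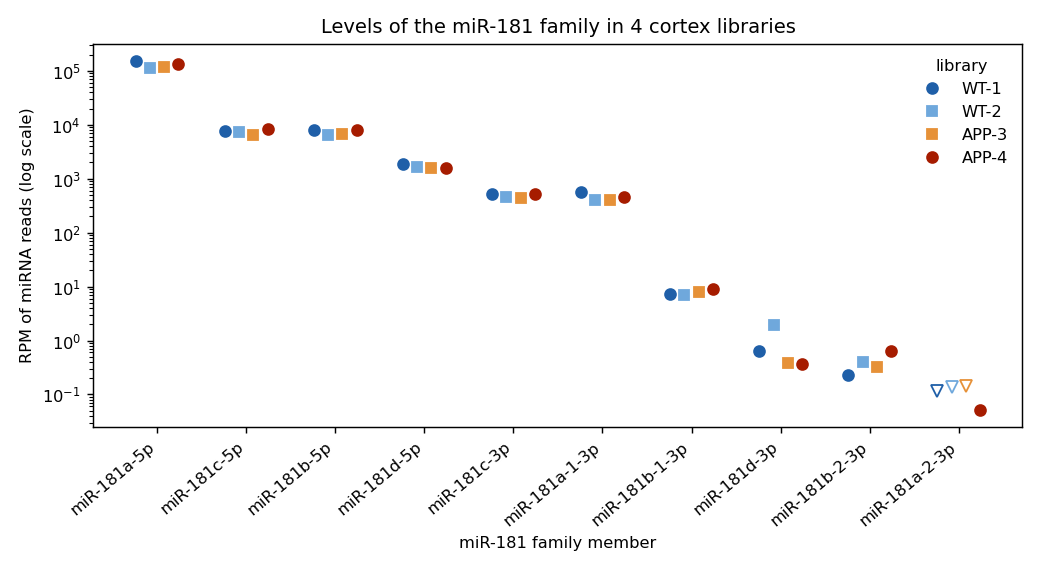
Level of each of the 10 members in the 4 libraries, in RPM on a log scale. Circles are the mice of group 1 and squares those of group 2, blue for WT and orange or red for AD, and open triangles stand at the level of 3 reads for libraries without a read of that member. The members span from 149939 RPM for miR-181a-5p in WT-1 to a single read of miR-181a-2-3p, and the 4 mice lie close together for all but the rarest arms.

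The composition of the family was nearly constant. miR-181a-5p took 89.5% of the 5p reads in WT-1 (95% Wilson interval 89.43 to 89.49), 87.9% in WT-2, 88.8% in APP-3 and 88.4% in APP-4. The share of miR-181b-5p was 4.77%, 5.14%, 5.06% and 5.21% in the same order, that of miR-181c-5p 4.66%, 5.70%, 4.94% and 5.32%, and that of miR-181d-5p 1.10%, 1.29%, 1.22% and 1.04%. For miR-181a-5p and miR-181c-5p the WT mice held both the highest and the lowest share, and for no 5p arm did the genotypes separate. The difference of the AD mean from the WT mean was -0.06 percentage points for miR-181a-5p, 0.18 for miR-181b-5p, -0.05 for miR-181c-5p and -0.07 for miR-181d-5p. Each was smaller than the SD of 1.12, 0.260, 0.730 and 0.128 percentage points of the WT mice. The SD of the AD mice was 0.247, 0.108, 0.268 and 0.129, which the difference of miR-181b-5p alone exceeded. Each difference changed sign without 1 of the WT mice, WT-1 for miR-181a-5p and miR-181b-5p and WT-2 for miR-181c-5p and miR-181d-5p. Except for miR-181b-5p, each also changed sign without 1 of the AD mice. Without APP-4 it was 0.11 for miR-181a-5p and 0.02 for miR-181d-5p, and without APP-3 it was 0.14 for miR-181c-5p. The 4 5p arms together held 99.3% to 99.4% of the reads of the family in every library, and the 6 3p arms between 0.633% and 0.668%.

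**Figure D2:**
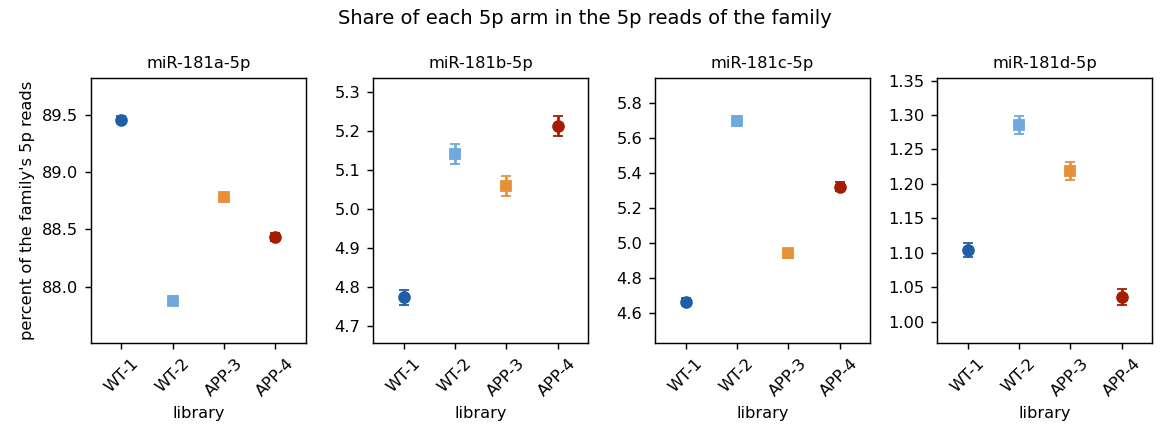
Share of each 5p arm in the family's 5p reads, in percent, for each library, with 95% Wilson intervals as bars and axes that do not start at 0. WT-1 and WT-2 lie at the ends of the range for miR-181a-5p (89.5% and 87.9%) and for miR-181c-5p (4.66% and 5.70%), with the AD mice between them.

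The 5p arm was in excess of the 3p arm for all letters of the family, least for miR-181c. For miR-181c the ratio of 5p to 3p reads was 14.8 in WT-1, 16.1 in WT-2, 14.9 in APP-3 and 15.7 in APP-4. For miR-181a, with the reads of both hairpins summed, it was 262, 283, 297 and 294, and for miR-181b, summed likewise, 1082, 885, 796 and 824. For miR-181d it was 2839, 864, 4287 and 4348, with 7 to 42 reads of its 3p arm, and in WT-2 it lay below that of miR-181b. Both AD mice lay above both WT mice for miR-181a and miR-181d and below them for miR-181b, where the ratios of the genotypes did not overlap in 27.8% of 209 hairpins with at least 1000 reads, with 0.5 read added to both arms. The difference of the genotype means, AD minus WT on the log2 scale, was 0.12 for miR-181a, -0.27 for miR-181b, -0.01 for miR-181c and 1.46 for miR-181d. Leaving out WT-1 or WT-2 moved it to 0.06 or 0.17 for miR-181a, to -0.13 or -0.42 for miR-181b, to -0.07 or 0.04 for miR-181c and to 2.32 or 0.60 for miR-181d. On the same scale the SD (n = 2) was 0.08, 0.20, 0.08 and 1.21 in the WT mice and 0.01, 0.04, 0.05 and 0.01 in the AD mice. The counting SE of miR-181d was 0.35 in WT-1, 0.22 in WT-2, 0.51 in APP-3 and 0.55 in APP-4. Among the 209 hairpins, the median size of the log2 ratio of the arms was 5.22 over the summed libraries. miR-181d, at 10.98, ranked 21 by this size, miR-181b, at 9.81, ranked 38, and miR-181a, at 8.13, ranked 56. miR-181c, at 3.94, ranked 125 and lay below the median.

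**Figure D3:**
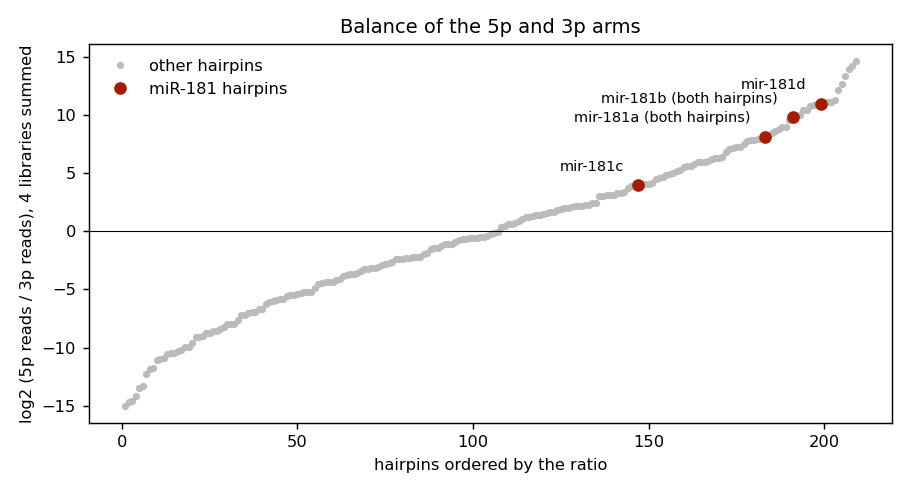
Log2 ratio of 5p to 3p reads of 209 hairpins, with the 4 libraries summed, ordered along the horizontal axis. Red points mark the miR-181 family, with hairpins of the same 5p arm summed, and all 4 lie on the side of the 5p arm, from 3.94 for miR-181c to 10.98 for miR-181d.

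The 3p arms divided unequally between the loci on chromosomes 1 and 2. Of the reads of both miR-181b 3p arms, miR-181b-1-3p, from chromosome 1, took 96.9% in WT-1 (95% Wilson interval 93.4 to 98.6), 94.5% in WT-2 (89.9 to 97.1), 96.1% in APP-3 (92.1 to 98.1) and 93.5% in APP-4 (89.1 to 96.3). These intervals overlap, and the differences between the mice were not tested. Of the reads of both miR-181a 3p arms, all but 1 were counted on miR-181a-1-3p, between 8406 and 14908 reads a library. As the sequences above show, miR-181a-2-3p differs from it by 2 substitutions. Of 754 miRNAs of the table matched to RefSeq, 35 had at most 1 read in the 4 libraries. Among them miR-181a-2-3p alone (2.86%) had a neighbour of equal length within 2 substitutions with at least 1000 reads. Of the other 719 miRNAs, 46 (6.40%) had such a neighbour. The limits of 1 read and 2 substitutions are the values of miR-181a-2-3p itself, so it was bound to be found. Whether the counting placed reads of miR-181a-2-3p on miR-181a-1-3p was not tested, and the 3p reads do not give the share of either hairpin in miR-181a-5p or miR-181b-5p.

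Siblings were first compared library against library, with Fisher's exact test (two-sided) on the reads of each miRNA and the Benjamini-Hochberg false discovery rate (FDR). A call needed an FDR under 0.05 together with a change of at least 1.5-fold, and it says that those libraries differ, not that the genotypes do. In group 1, APP-4 against WT-1, 0 of the 10 members were called, where 11.6% of 899 miRNAs were. At an FDR under 0.05 alone 4 members differed, where 40.3% of all did. Of these, miR-181c-5p was higher in APP-4, by 0.07 on the log2 scale, and turned to -0.18 with TMM library sizes. miR-181a-5p was lower at -0.14 (-0.39 with TMM), miR-181d-5p at -0.21 (-0.46) and miR-181a-1-3p at -0.30 (-0.55). miR-181b-5p had a log2 fold change of 0.01, which became -0.25 with TMM library sizes, with an FDR of 0.217 by miRNA reads, and miR-181b-1-3p one of 0.35 with an FDR of 0.0541.

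In group 2, APP-3 against WT-2, 1 of the 9 members with a read was called, where 6.81% of 896 miRNAs were, and 5 differed at the FDR alone, where 36% did. The called member was miR-181d-3p, the rare 3p arm of the hairpin in Nanos3, with 42 reads in WT-2 and 8 in APP-3. Its log2 fold change was -2.27 with a counting SE of 0.54 and an FDR of 6.47e-06. The 4 other members below the FDR limit were the 5p arms. They differed by at most 0.16 on the log2 scale, with miR-181a-5p at 0.06, miR-181b-5p at 0.03, miR-181c-5p at -0.16 and miR-181d-5p at -0.03.

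The same test between mice of one genotype gave as many calls. Between the WT mice, WT-2 against WT-1, 1 of 9 members was called, where 10.1% of 879 miRNAs were, and 7 differed at the FDR alone, where 40.5% did. The call was again miR-181d-3p, with a log2 fold change of 1.52, a counting SE of 0.41 and an FDR of 0.00037, since WT-2 held the most reads of it. All 6 abundant members, those that averaged 50 RPM or more, were lower in WT-2 than in WT-1, from -0.10 for miR-181c-5p to -0.42 for miR-181a-5p and -0.52 for miR-181a-1-3p. With TMM library sizes miR-181a-1-3p, at -0.63, was called as well. Between the AD mice, APP-4 against APP-3, 0 of 10 members were called, where 8.05% of 907 miRNAs were, and 5 differed at the FDR alone, where 35.2% did. Those 5 were higher in APP-4, from 0.22 for miR-181a-5p to 0.33 for miR-181c-5p, while miR-181d-5p was at -0.01. For miR-181a-5p the difference between the WT mice, 0.42 in size, was therefore larger than the difference within either sibling pair, 0.14 and 0.06.

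**Figure D4:**
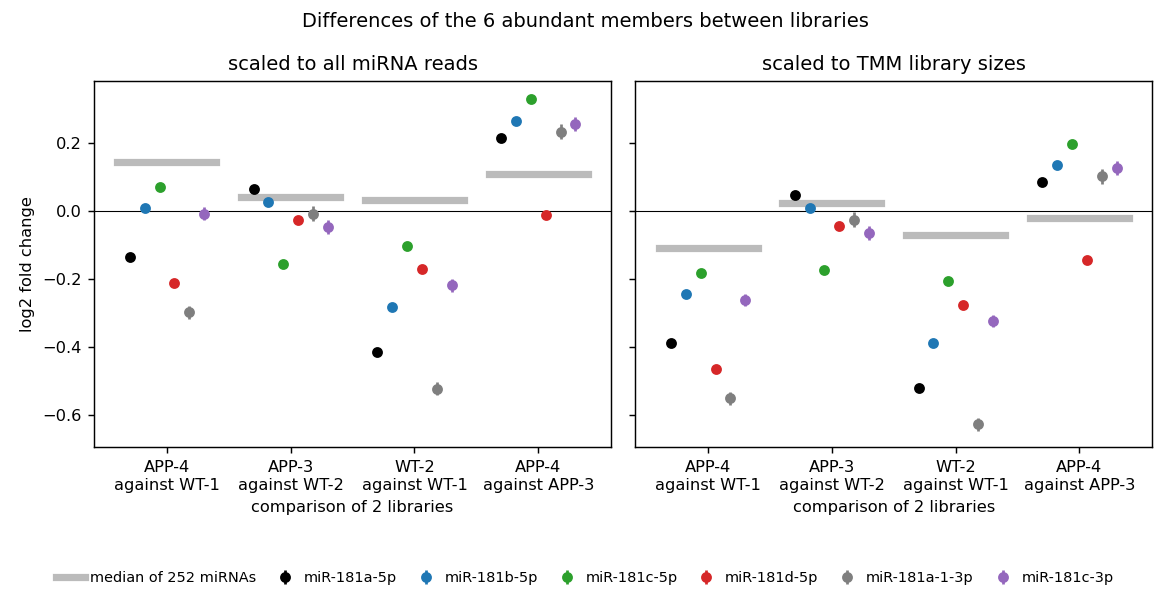
Log2 fold change of the 6 abundant members in the 4 comparisons of libraries, the first library against the second, with bars for the counting SE and a grey line at the median of the 252 miRNAs that averaged 50 RPM or more. By miRNA reads (left) the members lie around 0 in both sibling pairs and below 0 between the WT mice, and with TMM library sizes (right) all 6 also lie below 0 in group 1.

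By miRNA reads the median difference of the abundant members between siblings lay below that of all abundant miRNAs. The median size of the log2 difference of the 6 members was 0.10 in group 1, against 0.26 over the 252 miRNAs that averaged 50 RPM or more, and 0.04 against 0.19 in group 2. The exception in group 1 was miR-181a-1-3p, at 0.30. Between the WT mice it was 0.25 against 0.24, and between the AD mice 0.24 against 0.23. With TMM library sizes it was 0.05 against 0.19 in group 2 and 0.33 against 0.24 in group 1. Of the pairs that share neither genotype nor group, WT-2 and APP-4 then differed by a median of 0.10 against 0.21, and WT-1 and APP-3 by 0.38 against 0.19. The lower difference in group 1 thus depends on the scaling.

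Over the 4 mice, taken as the replicates, the genotypes were compared with edgeR's quasi-likelihood test, and with DESeq2 as an alternative. Of 623 miRNAs tested, 0 (0%) had an adjusted p under 0.05, and 36 (5.78%) had an unadjusted p under 0.05, while DESeq2 gave 0 and 28 of the 942. Of the family 8 members passed the filter on low counts, all but miR-181b-2-3p and miR-181a-2-3p. None of these 8 passed the adjusted test with edgeR or with DESeq2, and miR-181d-3p alone had an unadjusted p under 0.05 with either. Its log2 fold change of AD over WT was -1.86 (SE 0.59), with an unadjusted p of 0.0154 and an adjusted p of 0.768 by edgeR. It was lower in both AD mice than in both WT mice. With 17 and 42 reads in WT-1 and WT-2 and 8 and 7 in APP-3 and APP-4, it passed the filter only through the WT mice. The filter thus selected it by the genotype in which it was high, and its unadjusted p is no support for a difference. Without WT-2 the log2 fold change was -0.95.

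None of the abundant members passed the adjusted test. The log2 fold change of AD over WT was -0.19 for miR-181a-5p (SE 0.24), -0.18 for miR-181c-5p (SE 0.19), -0.26 for miR-181d-5p (SE 0.19) and -0.32 for miR-181a-1-3p (SE 0.25), with adjusted p-values of edgeR between 0.929 and 0.958. Without WT-1 the values of miR-181a-5p and miR-181a-1-3p turned to 0.08 and 0.02. miR-181b-5p was at -0.13 (SE 0.20), which turned to 0.02 without TMM and to 0.07 without WT-1, and miR-181c-3p at -0.17 (SE 0.20), which was -0.01 without WT-1 and -0.29 without WT-2. miR-181d-5p was at -0.12 without WT-1, and miR-181c-5p at -0.08 without WT-1 or without APP-3 and at -0.29 without APP-4. miR-181b-1-3p was at 0.14 (SE 0.19). The median over the 8 members was -0.19 and over all 623 miRNAs -0.02, and without TMM these were -0.04 and 0.11.

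In 3 of the 8 members the RPM of the genotypes did not overlap, where this was so in 36% of the 623 miRNAs. They were miR-181d-5p and miR-181d-3p, lower in AD mice, and miR-181b-1-3p, higher in AD mice. Of these, miR-181d-3p was among the 8 only because it passed the filter through the WT mice. The same 3 members separated with TMM library sizes and with clean reads as library sizes, for which the share of all miRNAs is not given here.

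The family was the largest of 4 miRNA families compared by their 5p arms. Its 4 5p arms took from 12.8% of the miRNA reads in WT-2 to 16.8% in WT-1. The 9 let-7 and miR-98 arms took between 7.90% and 10.6%, the 5 miR-30 arms between 6.18% and 6.36%, and the 2 miR-26 arms between 6.66% and 8.13%. miR-181a-5p held 87.9% to 89.5% of its family, where let-7f-5p held 34.6% to 36.8%, miR-30a-5p 45.7% to 52.4% and miR-26a-5p 95.8% to 96.4% of theirs. By miRNA reads the median log2 fold change in group 1 was -0.06 for the miR-181 arms, 0.20 for let-7 and miR-98, 0.27 for miR-30 and 0.23 for miR-26. In group 2 it was 0.00, -0.04, -0.03 and -0.11 in the same order. With TMM library sizes it was -0.32, -0.05, 0.01 and -0.03 in group 1 and -0.02, -0.06, -0.05 and -0.13 in group 2.

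The pattern of miR-181a-5p over the 4 libraries was compared with that of 246 miRNAs outside the family above the same level, by the root mean square difference of their log2 RPM after centring each on its own mean. The most alike were miR-9-5p, at a distance of 0.0338, miR-21a-5p (0.0417), miR-101a-3p (0.0488), miR-541-5p (0.0544) and miR-129-5p (0.0570), where the median distance was 0.247. miR-9-5p was at 36670 RPM in WT-1, 29300 in WT-2, 29940 in APP-3 and 34938 in APP-4. It is on the list of neuronal markers, as is miR-129-5p, but that list did not share 1 pattern. miR-124-3p was at 7183 RPM in WT-1 and 10834 in WT-2, and miR-128-3p at 28065 and 36979, both lowest in WT-1 and highest in WT-2. Within the family, miR-181b-5p was closest to miR-181a-5p, at 0.0565, followed by miR-181a-1-3p (0.0704) and miR-181c-3p (0.0714). miR-181c-5p, at 0.118, and miR-181d-5p, at 0.126, were farther, although miR-181c-3p comes from the same Nanos3 intron as these 5p arms. These distances rest on 4 libraries that share their scaling, and they are given as a description.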

How the data were processed

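Small RNA libraries of the cortex of 2 WT and 2 AD mice were analysed, grouped by the genotype in the labels. Per the study's methods, the authors trimmed the reads, kept those of 18 to 35 nucleotides, matched them to miRBase and counted them per mature miRNA. The deposited counts of 942 miRNAs are not normalized, and beside them the authors gave RPM of the clean reads. The deposited RPM were used only to recover the clean reads of each library. The submitters' processing notes name CASAVA 1.8.

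The counts were scaled to the miRNA reads of each library. Two-sided Fisher's exact tests with the Benjamini-Hochberg FDR used scipy 1.17.1, and log2 fold changes between libraries had 0.5 read added to both counts. edgeR 4.0.16 (filterByExpr, TMM, quasi-likelihood test, no sibling term) in R 4.3.3 compared the genotypes, and DESeq2 1.42.0 was an alternative, as were other library sizes, limits and filters and leaving out each mouse. Fisher's and edgeR's tests were run on simulated counts with changes of known size. Apart from those changes, the simulated mice differed by counting error alone for Fisher's test and by less than these mice for edgeR's. The simulation therefore does not give the rate of false calls in these data. No pair of libraries was alike within sampling noise, the lowest chi-square over its degrees of freedom being 439. The biological coefficient of variation was 24.0%. All rows of the miR-181 family were named, with the 5 miRNAs most like miR-181a-5p, 3 comparison families and lists of marker miRNAs. The members and lists were chosen with earlier results of these data known. Positions and sequences came from GENCODE vM21 and RefSeq GRCm38.p6, and the count table holds no coordinates.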

Additional observations from a re-analysis of the deposited data

Results flagged for a closer look

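The abundant members miR-181a-5p and miR-181c-5p moved in opposite directions in the sibling pairs. miR-181a-5p had a log2 fold change of AD over WT of -0.14 in group 1 and 0.06 in group 2, so that the groups differed by -0.20. miR-181c-5p had 0.07 in group 1 and -0.16 in group 2, so that the groups differed by 0.23. With TMM library sizes miR-181c-5p was at -0.18 and -0.17, and the opposite directions ended, while miR-181a-5p was at -0.39 and 0.05. Each pair is 1 mouse of either genotype, and the difference between the groups was not tested.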

How the results depend on the processing

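Of 148 log2 fold changes under alternative settings, 140 kept their direction and their side of the threshold. Of 37 counts of members called 27 stayed within 1.5 times the reported one. The reported counts were 0 or 1, so this means an unchanged count, and a stricter limit cannot change a count of 0. The differences of genotype means, which had no test, moved by less than 1 SD in 41 of 43 values. With 2 mice a genotype, leaving out 1 always moves its mean by less than its SD, so this count does not measure stability. Of the 43 values 12 changed sign, 11 of them on leaving out a mouse. On leaving out a mouse the family sum ranged from -0.23 to 0.16 (log2). In percentage points the shares ranged from -0.85 to 0.73 for miR-181a-5p and from -0.01 to 0.36 for miR-181b-5p. They ranged from -0.57 to 0.47 for miR-181c-5p and from -0.16 to 0.02 for miR-181d-5p. Without the fold limit 4 members were called in group 1, where 40.3% of all miRNAs were, and 5 in group 2, where 36% were. For WT-2 against WT-1 the number was 7, where 40.5% of all were, and for APP-4 against APP-3 it was 5, where 35.2% were. For the settings that follow, the share of all miRNAs called is not given here. With reads scaled to 1000000 a library or a mean of at least 10 RPM, 0 members were called in group 2 and 0 between the WT mice, the latter also 0 with the Bonferroni correction, since miR-181d-3p then had too few reads or missed the limit. With TMM library sizes 2 members were called between the WT mice, with miR-181a-1-3p at -0.63, and in group 1 the log2 fold changes of miR-181c-5p and miR-181b-5p turned to -0.18 and -0.25. With clean reads as library sizes miR-181b-1-3p turned to 0.058 between the WT mice. In edgeR's comparison of the genotypes miR-181b-5p turned to 0.016 without TMM. Leaving out 1 mouse at a time, the log2 fold change ranged from -0.40 to 0.082 for miR-181a-5p, from -0.27 to 0.069 for miR-181b-5p and from -0.57 to 0.017 for miR-181a-1-3p, and the positive values were those without WT-1. With the sibling pair as a block, edgeR called 2 of 623 miRNAs and 0 members, with adjusted p 0.240 for miR-181d-3p, and the deviations of siblings from their genotype means had r = 0.235 over 252 miRNAs. The block changed no call of a member. Over all these fits of the genotypes the lowest adjusted p of any member lay between 0.179 and 0.997. With miR-181b-5p and miR-181d-5p summed, their share in the 5p reads differed by 0.11 percentage points, AD minus WT, and with miR-181b-2-3p alone the log2 arm ratio of miR-181b by -0.56. The cause of the other changes was not tested.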
